A study of Mus musculus with 6 samples.

Results

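The genes described here encode 10 enzymes that make serine, asparagine, the proline precursor and the one-carbon units carried by folate. They were Phgdh, Psat1, Psph, Asns, Aldh18a1, Shmt1, Shmt2, Mthfd1, Mthfd2 and Mthfd1l, chosen by name with earlier results of these data known. Each of the 10 was found among the 36333 genes listed per library. All 10 also passed the filter on low values (a mean of at least 1 TPM, transcripts per 1e+06), which left 11551 genes tested. The 6 libraries came from C57BL/6 mouse macrophages, grown from bone marrow with the growth factor M-CSF at 10 ng/mL for 7 days. Cells in 3 libraries were given 100 µM stearic acid, a saturated fatty acid, for 24 h, and cells in the other 3 an equal volume of the ethanol vehicle for 24 h. The labels number the libraries 1 to 3 in each group and do not say whether these came from separate mice or separate wells. The p-values therefore cover the variation among these 6 samples alone, and that variation may be technical.

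Serine is made from the glycolytic intermediate 3-phosphoglycerate in successive steps by PHGDH, PSAT1 and PSPH. Serine hydroxymethyltransferases then split serine into glycine and a one-carbon unit held on folate. The reaction takes place in mitochondria through SHMT2 and in the cytosol through SHMT1, and the carbon passes on through MTHFD2 and MTHFD1L in mitochondria and through the trifunctional MTHFD1 in the cytosol. One-carbon units are used to build purines and thymidylate and to remake methionine. ASNS makes asparagine from aspartate and glutamine, and ALDH18A1 starts proline and ornithine synthesis from glutamate. Several of these genes, Asns among them, are known targets of the stress-induced transcription factor ATF4.

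Depth recovered from the steps between low RPKM values (reads per kilobase per 1e+06 reads) was 64.0 to 76.4 M reads or read pairs with stearic acid and 58.1 to 80.8 M with vehicle (M, 1e+06). At these depths 1 TPM corresponds to 22.1 to 27.6 reads per kilobase in stearic acid libraries and 19.1 to 27.7 in vehicle libraries. All 9 listed macrophage markers were detected above the filter, with Lyz2 at 19817 ± 2361 TPM with stearic acid and 26281 ± 777 TPM with vehicle (SD, n = 3 each). Of the 9, 4, Lyz2 included, were called lower and Cd68 higher, where 11.9% of all tested genes were called lower and 12.8% higher. Of 22 markers of other cells, S100a8 alone passed the filter, at 6.41 ± 0.467 TPM with stearic acid and 3.33 ± 1.18 TPM with vehicle. These 22 markers summed to 8.20 to 10.3 TPM with stearic acid and 5.88 to 8.96 TPM with vehicle, and Cd3e, Nkg7, Hbb-bs and Mcpt8 were listed at 0 throughout. The part of such cells in the results was not tested, and in bulk RNA a change in the number of cells of a type cannot be told apart from a change in RNA per cell.

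With stearic acid 5 of the 10 genes rose, Asns, Phgdh, Aldh18a1, Shmt2 and Mthfd2, and the other 5 did not pass (limma, Benjamini-Hochberg adjusted over all 11551 genes, threshold 0.05). Of all tested genes 12.8% were called higher. As the 10 genes were chosen with earlier results of these data known, their share is given as a description. No gene of the 10 was called lower, against 11.9% of all tested genes, and at an unadjusted p under 0.05 none was lower and 6 were higher, against 21.1% lower and 19.3% higher among all tested genes. The median log2 fold change of the 10 genes was 0.48, beside -0.03 for all tested genes. With vehicle replicate 2 left out, 0 of the 10 genes were called higher (3.32% of all tested genes), and with vehicle replicate 3 left out, also 0 (4.19%). With stearic acid replicate 3 left out 3 were called higher (5.05%), and with stearic acid replicate 1 left out 9 were (19.2%).

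**Figure D1:**
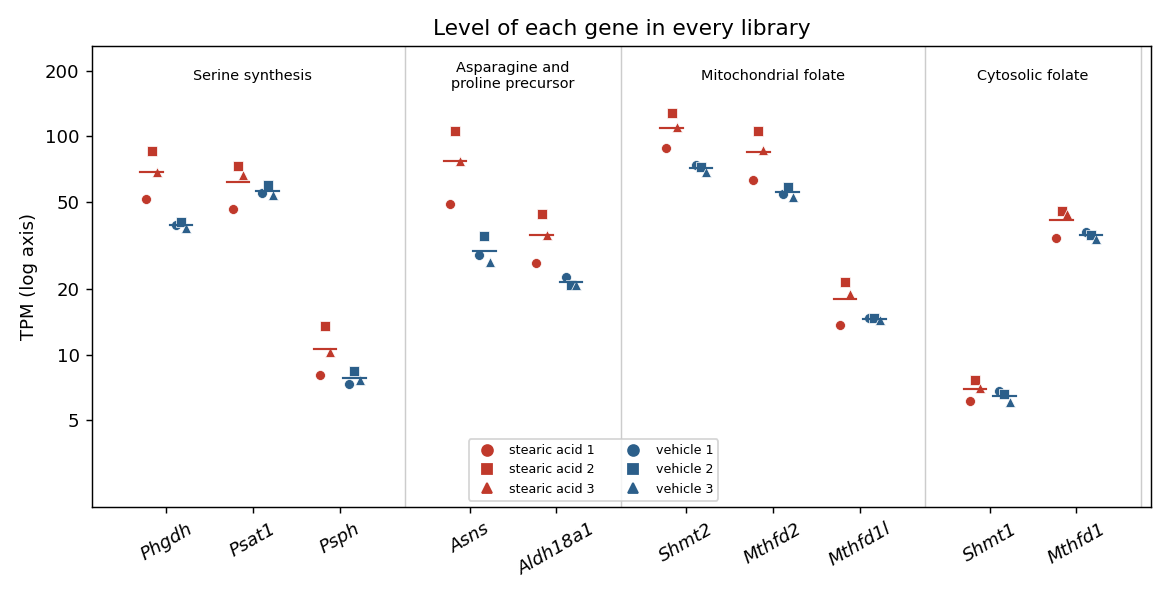
TPM of each of the 10 genes in every library (log axis), stearic acid in red left of vehicle in blue, with marker shape for the replicate number and a line at each group mean. In Phgdh, Asns, Aldh18a1, Shmt2 and Mthfd2 each stearic acid library lies above each vehicle library, and in the other 5 genes the groups overlap.

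The promoter of Asns is shown because this gene had the largest fold change of the 10, and that of Aldh18a1 because these were the only promoter windows of the 10 genes that held a searched motif. Windows run from 250 bases before to 50 bases after the RefSeq start site (GRCm38.p6), and 11 windows matched, with a pair for Psat1. Capitals mark TGATGNAA, the core of the C/EBP-ATF response element at which ATF4 can bind (both strands searched, reverse complement TTNCATCA), and CACGTG, the E-box at which MYC can bind. The Asns window is chr6:7693160-7693459 and the Aldh18a1 window is chr19:40588414-40588713, both on the minus strand and written 5′ to 3′.
Asns: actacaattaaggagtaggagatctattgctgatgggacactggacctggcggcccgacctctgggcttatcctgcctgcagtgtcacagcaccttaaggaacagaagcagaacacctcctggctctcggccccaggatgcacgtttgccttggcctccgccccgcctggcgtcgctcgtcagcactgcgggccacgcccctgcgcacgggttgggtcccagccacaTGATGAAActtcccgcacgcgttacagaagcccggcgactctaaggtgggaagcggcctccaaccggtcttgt
Aldh18a1: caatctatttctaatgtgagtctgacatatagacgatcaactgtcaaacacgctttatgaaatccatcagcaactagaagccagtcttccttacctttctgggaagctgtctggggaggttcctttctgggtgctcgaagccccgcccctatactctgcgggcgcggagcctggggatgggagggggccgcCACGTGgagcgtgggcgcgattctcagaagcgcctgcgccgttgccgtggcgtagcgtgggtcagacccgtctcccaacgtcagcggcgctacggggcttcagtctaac

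In Asns the match TGATGAAA began 23 bases before the start site. TGATGNAA was in 1 of the 11 windows of these genes and in 3.97% of all 32851 promoter windows (2.34% of those of tested genes). CACGTG was in 1 of the 11 windows, 59 bases before the start of Aldh18a1, and in 7.15% of all windows (10.3% of those of tested genes). These motifs can share bases, but no window of the 10 genes held both, and a match is a description of the sequence only.

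Of the serine synthesis enzymes, Phgdh rose and the other 2 did not pass, where 12.8% of all tested genes were called higher. Phgdh (gene 236539, chromosome 3, 98313171 to 98339969, GRCm38), the first and committed step, stood at 51.7, 86.0 and 68.8 TPM in stearic acid replicates 1 to 3, against 39.4, 40.5 and 37.9 TPM in vehicle replicates 1 to 3. The groups did not overlap, as was so with stearic acid higher in 22.8% of all tested genes. The group means were 68.8 ± 17.2 TPM with stearic acid and 39.3 ± 1.29 TPM with vehicle (SD, n = 3 each), giving a log2 fold change of 0.76 (SE 0.15, limma adjusted p = 0.012). Leaving out vehicle replicate 2 or 3 ended the call (limma adjusted p of 0.062 and 0.064), with log2 fold changes of 0.79 and 0.74.

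Psat1 (gene 107272, chromosome 19, 15905123 to 15925059), the aminotransferase of the next step, was at 46.5, 73.5 and 66.4 TPM with stearic acid and at 55.2, 59.6 and 54.2 TPM with vehicle. Stearic acid replicate 1 lay below all vehicle libraries and the other 2 above them. Its log2 fold change of 0.11 did not pass (SE 0.15, limma adjusted p = 0.58), and it turned to -0.018 without stearic acid replicate 2. Without stearic acid replicate 1 it was 0.31 and passed (limma adjusted p = 0.0077). Psph (gene 100678, chromosome 5, 129765558 to 129787443), the phosphatase that releases serine, was at 8.05, 13.5 and 10.3 TPM with stearic acid and 7.32, 8.38 and 7.65 TPM with vehicle. The groups overlapped, with stearic acid replicate 1 inside the vehicle range, and the log2 fold change of 0.38 did not pass (SE 0.15, limma adjusted p = 0.099). With stearic acid replicate 1 left out it was 0.54 and passed (limma adjusted p = 0.0015), and with replicate 2 left out it was 0.20. The 5′ end of Psph overlaps that of Cct6a, a chaperonin subunit at up to 239 TPM, so reads from the overlap may not be assigned with certainty.

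Within a library, the ratio of Phgdh to Psat1 was 1.11, 1.17 and 1.04 with stearic acid and 0.713, 0.679 and 0.700 with vehicle. The lowest stearic acid ratio thus lay above the highest vehicle ratio. The difference was 0.65 on the log2 scale (two-sided exact permutation p = 0.1, the smallest that 20 assignments of 3 against 3 libraries allow). This ratio was picked after the values were seen.

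Asparagine synthetase had the largest change. Asns (gene 27053, chromosome 6, 7675165 to 7693209) stood at 48.9, 105.5 and 77.2 TPM with stearic acid, against 28.5, 34.8 and 26.6 TPM with vehicle. Even the lowest stearic acid library exceeded the highest vehicle library. The means were 77.2 ± 28.3 TPM with stearic acid and 29.98 ± 4.30 TPM with vehicle (SD, n = 3 each), a log2 fold change of 1.28 (SE 0.23, limma adjusted p = 0.0087). Asns was also the most variable of the 10 within each group, with a coefficient of variation of 36.7% with stearic acid and 14.3% with vehicle. Leaving out vehicle replicate 2 or 3 ended its call (limma adjusted p of 0.052 and 0.056).

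Aldh18a1 (gene 56454, chromosome 19, 40550257 to 40588463) was at 26.4, 44.0 and 35.2 TPM with stearic acid and 22.7, 20.8 and 20.9 TPM with vehicle, again with no overlap. It rose by log2 0.66 (SE 0.15, limma adjusted p = 0.019). Its adjusted p by limma was 0.078 and 0.083 with vehicle replicates 2 and 3 left out in turn, and 0.059 with stearic acid replicate 3 left out, so the call was lost in these fits. Their log2 fold changes were 0.64, 0.64 and 0.65. Pycr1, which completes proline in mitochondria, was near the filter at 1.52 ± 0.229 TPM with stearic acid and 1.101 ± 0.229 TPM with vehicle and did not pass (log2 0.26, limma adjusted p = 0.13).

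Of the 3 mitochondrial folate enzymes, 2 rose, where 12.8% of all tested genes were called higher. Shmt2 (gene 108037, chromosome 10, 127517123 to 127522444) was at 89.0, 128 and 110.1 TPM with stearic acid, against 74.3, 72.2 and 69.0 TPM with vehicle. It was the highest of the 10 genes in both groups and the groups did not overlap. Its means were 109 ± 19.7 TPM with stearic acid and 71.8 ± 2.68 TPM with vehicle (SD, n = 3 each), a log2 fold change of 0.58 (SE 0.12, limma adjusted p = 0.013). The call was lost without vehicle replicate 2 or 3 (limma adjusted p of 0.064 and 0.068), with log2 fold changes of 0.59 and 0.55.

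Mthfd2 (gene 17768, chromosome 6, 83305704 to 83326011), the mitochondrial dehydrogenase and cyclohydrolase, was at 63.3, 105.5 and 87.1 TPM with stearic acid and 54.8, 58.8 and 52.8 TPM with vehicle. Stearic acid replicate 1 was closest to vehicle but above its highest library. Mthfd2 rose by log2 0.58 (SE 0.16, limma adjusted p = 0.029). The call was lost when any vehicle library or stearic acid replicate 3 was left out (limma adjusted p of 0.080 to 0.11). Log2 fold changes in these fits were 0.55 to 0.63. Mthfd1l (gene 270685, chromosome 10, 3972892 to 4167081), which releases formate from mitochondria, was at 13.6, 21.6 and 18.9 TPM with stearic acid and 14.7, 14.8 and 14.4 TPM with vehicle. Stearic acid replicate 1 fell below all vehicle libraries. The log2 fold change of 0.26 did not pass (SE 0.14, limma adjusted p = 0.19). With stearic acid replicate 1 left out it was 0.44 and passed (limma adjusted p = 0.0013), and with replicate 2 left out it was 0.13.

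Neither cytosolic folate enzyme passed, as was so of 8695 of the 11551 tested genes. Shmt1 (gene 20425, chromosome 11, 60788897 to 60811265) was the lowest of the 10 genes, at 6.16, 7.66 and 7.05 TPM with stearic acid and 6.79, 6.62 and 6.04 TPM with vehicle, with a log2 fold change of 0.09 (SE 0.10, limma adjusted p = 0.53). Mthfd1 (gene 108156, chromosome 12, 76254406 to 76319820) was at 34.2, 45.5 and 43.9 TPM with stearic acid and 36.6, 35.3 and 34.0 TPM with vehicle. In both genes stearic acid replicate 1 lay within the vehicle range. The log2 fold change of Mthfd1 was 0.21 (SE 0.11, limma adjusted p = 0.18), which became 0.33 and passed with stearic acid replicate 1 left out (limma adjusted p = 0.0041) and became 0.13 with replicate 2 left out. Shmt1 passed in none of these fits, and its value ran from 0.022 with replicate 2 left out to 0.16 with replicate 1 left out.

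**Figure D2:**
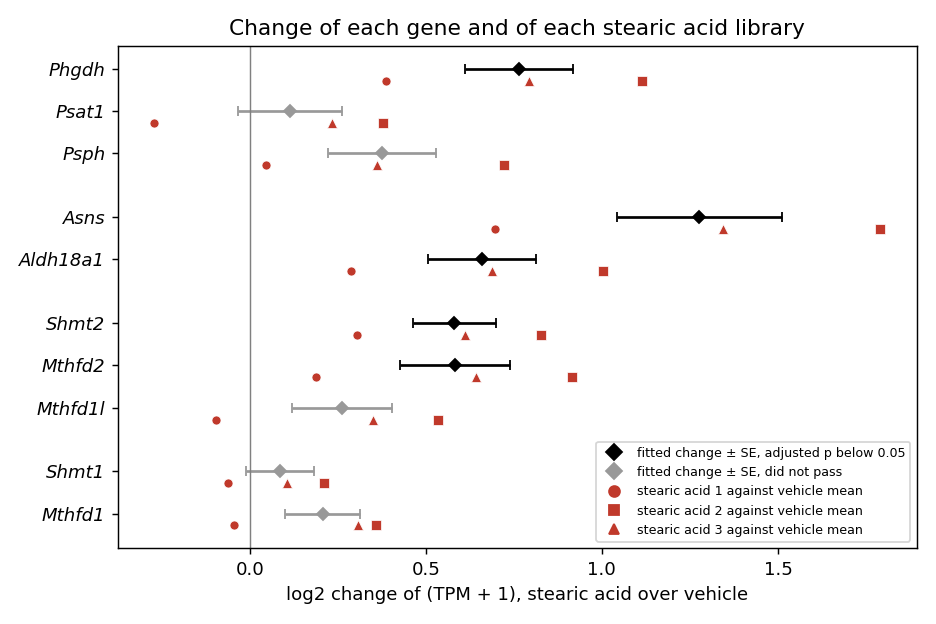
Fitted log2 change of (TPM + 1), stearic acid over vehicle, with its SE (diamonds, black where the adjusted p was below 0.05), and the difference of each stearic acid library from the vehicle mean (red). Asns has the largest change at 1.28 and Shmt1 the smallest at 0.09, and in each gene replicate 2 is farthest right and replicate 1 farthest left.

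Mitochondrial and cytosolic enzymes were compared as ratios of TPM within a library. Shmt2 to Shmt1 was 14.4, 16.7 and 15.6 with stearic acid, against 10.9, 10.9 and 11.4 with vehicle. The groups were apart, and the difference was 0.50 on the log2 scale (exact permutation p = 0.1, adjusted over the 3 pairs 0.15). Mthfd2 to Mthfd1 was 1.85, 2.32 and 1.98 with stearic acid, against 1.495, 1.66 and 1.55 with vehicle. These also did not overlap, with a difference of 0.38 (exact permutation p = 0.1, adjusted 0.15). Mthfd1l to Mthfd1 was 0.398, 0.475 and 0.431 with stearic acid and 0.401, 0.418 and 0.424 with vehicle, which overlapped, with a difference of 0.06 (exact permutation p = 0.5, also 0.5 adjusted). With 3 against 3 libraries no pair could reach 0.05. Summed TPM of the 3 mitochondrial enzymes was 166 to 255 with stearic acid and 136 to 146 with vehicle, and that of the 2 cytosolic enzymes was 40.4 to 53.2 with stearic acid and 40.0 to 43.4 with vehicle.

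**Figure D3:**
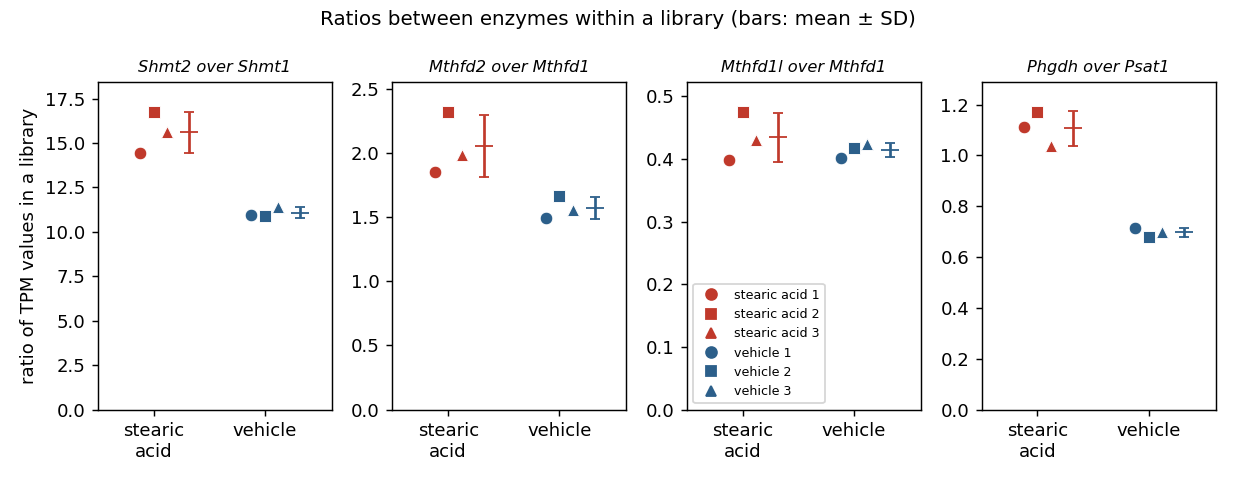
Ratio of TPM values within each library for 4 pairs of enzymes, stearic acid left of vehicle, with mean ± SD beside the points (n = 3 each). Groups are apart for Shmt2 over Shmt1, Mthfd2 over Mthfd1 and Phgdh over Psat1, and overlap for Mthfd1l over Mthfd1. The pair Phgdh over Psat1 was picked after the values were seen. How often groups are apart in ratios of other genes was not tested.

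Stearic acid libraries were not alike in how far these genes moved. In all 10 genes replicate 2 was highest, replicate 3 next and replicate 1 lowest, an order found in 25.3% of all tested genes and in 76.7% of the 1482 genes called higher. The median difference of the 5 called genes from the vehicle mean was log2 0.31, 1.00 and 0.69 in stearic acid replicates 1, 2 and 3, beside 0.30, 0.56 and 0.43 for all genes called higher. Among vehicle libraries the 10 genes had coefficients of variation of 1.33% to 14.3%, against 10.9% to 36.7% among stearic acid libraries.

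Levels per transcript length, in TPM, fell in a similar but not identical order in both groups. With stearic acid the means ran from Shmt2 through Mthfd2, Asns, Phgdh, Psat1, Mthfd1, Aldh18a1, Mthfd1l and Psph to Shmt1. Neighbours among the first 5 overlapped between libraries, as did Mthfd1 and Aldh18a1. With vehicle the order was Shmt2, Psat1, Mthfd2, Phgdh, Mthfd1, Asns, Aldh18a1, Mthfd1l, Psph and Shmt1, and the neighbours that overlapped were Psat1 with Mthfd2 and Mthfd1 with Asns. Asns thus stood higher in the order with stearic acid than with vehicle, and Psat1 lower.

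Other genes of mitochondrial folate metabolism mostly did not pass: of 10 listed, 6 were tested and 1 rose, with a median of 0.12. Beside this count and those of the lists below, 12.8% of all tested genes were called higher and 11.9% lower. The riser was Gcsh, the lipoyl carrier of the glycine cleavage system, at 105.0 ± 22.2 TPM with stearic acid and 75.1 ± 4.09 TPM with vehicle (log2 0.46, limma adjusted p = 0.043), a call lost with RPKM, with median-of-ratios scaling, with no filter and with the prior without the intensity trend. Mthfd2l, a paralog of Mthfd2, was at 1.76 ± 0.154 TPM with stearic acid and 1.54 ± 0.332 TPM with vehicle and did not pass (log2 0.13, limma adjusted p = 0.44). Aldh1l2, which oxidises formyl-folate in mitochondria, lay below the filter at 0.690, 1.198 and 1.002 TPM with stearic acid, against 0.318, 0.360 and 0.327 TPM with vehicle. Each stearic acid library was above each vehicle library (log2 0.55, two-sided exact permutation p = 0.1, the smallest possible).

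Of 14 tested genes of cytosolic folate metabolism and folate uptake, 2 rose and 2 fell, with a median of -0.05. Over all tested genes 12.8% rose and 11.9% fell. Slc46a1, the proton-coupled folate transporter, stood at 23.5 ± 1.79 TPM with stearic acid and 17.7 ± 1.02 TPM with vehicle (log2 0.39), and Fpgs, which adds the glutamate tail that keeps folate in the cell, at 9.62 ± 2.23 TPM with stearic acid and 5.78 ± 0.554 TPM with vehicle (log2 0.63). The fallers were Aldh1l1, the cytosolic formyl-folate dehydrogenase, at 7.85 ± 1.52 TPM with stearic acid and 11.96 ± 0.959 TPM with vehicle (log2 -0.56), and Tyms (log2 -0.27), the thymidylate synthase. Limma adjusted p-values were 0.014 to 0.032 for these 4 genes.

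Of 14 tested genes of the methionine cycle and transsulfuration, 1 rose and 1 fell (median 0.19), where 12.8% of all tested genes rose and 11.9% fell. Adi1, of methionine salvage, rose by log2 0.26 (limma adjusted p = 0.027), and Mtr, the methionine synthase that takes its methyl group from folate, was at 19.8 ± 4.07 TPM with stearic acid and 28.01 ± 2.41 TPM with vehicle (log2 -0.49, limma adjusted p = 0.031). Of 12 tested genes that use serine or glycine, Shmt1 and Shmt2 among them, 2 rose and 2 fell (median -0.09). Beside Shmt2 the riser was Alas1, which joins glycine to succinyl-CoA in heme synthesis, at 84.3 ± 9.21 TPM with stearic acid and 48.2 ± 3.21 TPM with vehicle (log2 0.79, SE 0.09, limma adjusted p = 0.0015). The fallers were Sptssa, a small subunit of serine palmitoyltransferase (log2 -0.39), and Serinc3 (log2 -0.64).

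Of 12 tested genes around asparagine, aspartate, glutamate and alanine, 2 rose and 1 fell (median 0.02), where 12.8% of all tested genes rose and 11.9% fell. The transaminases Got1 and Gpt2 rose by log2 0.37 and 0.30, and Asrgl1, which breaks down asparagine, stood at 15.1 ± 2.40 TPM with stearic acid and 21.3 ± 0.718 TPM with vehicle (log2 -0.48, limma adjusted p = 0.018). Of 6 tested proline and ornithine genes, Aldh4a1, of proline breakdown, fell by 0.41 on the log2 scale and no other passed (median -0.08). That fall did not pass with no filter or with the prior without the intensity trend. Of 5 glycolytic genes around 3-phosphoglycerate, the substrate of PHGDH, 3 rose (median 0.33): Pgam1 at 1005 ± 184 TPM with stearic acid and 673 ± 28.4 TPM with vehicle (log2 0.56, limma adjusted p = 0.014), Pgk1 (log2 0.39) and Eno1 (log2 0.33). Pgk1 and Eno1 did not pass with RPKM, median-of-ratios scaling or the prior without the intensity trend (limma adjusted p of 0.052 to 0.073), which left 1 rise, and none of the 3 passed with no filter on low values.

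**Figure D4:**
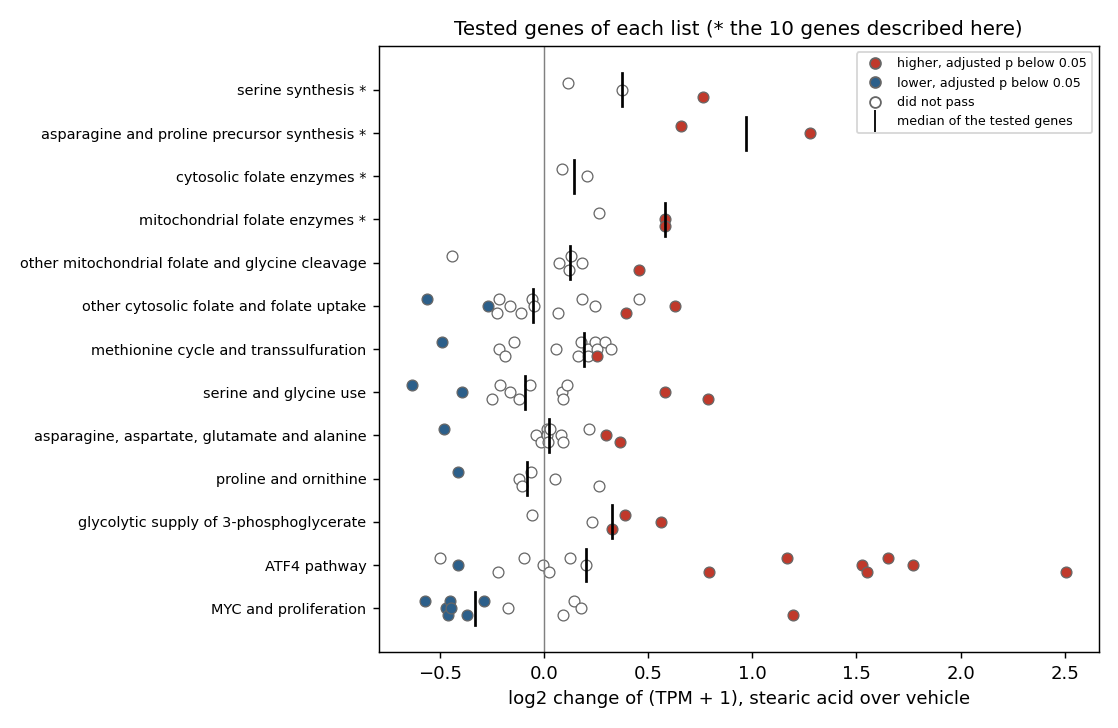
Log2 change of (TPM + 1), stearic acid over vehicle, of the tested genes of each list, red where higher and blue where lower at an adjusted p below 0.05, with a bar at the list's median. The largest changes lie in the ATF4 list, up to 2.51 for Trib3. In the MYC and proliferation list 7 genes, all markers of dividing cells, are lower beside a higher Myc at 1.19. The lists were written with earlier results of these data known.

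In the list of ATF4 and its pathway 7 of 15 tested genes rose and 1 fell (median 0.20), against 12.8% and 11.9% of all tested genes. Atf4 itself was at 268, 438 and 346 TPM with stearic acid, against 155, 158 and 146 TPM with vehicle (log2 1.17, SE 0.15, limma adjusted p = 0.0022). Its stearic acid libraries fell in the same order as in the 10 enzyme genes, an order that 76.7% of all genes called higher had. Ddit3, which encodes CHOP, rose by log2 1.55, Atf5 by log2 1.65 and the pseudokinase Trib3 by log2 2.51 (limma adjusted p of 0.00023 to 0.00031). Eif2ak2, the double-stranded RNA kinase PKR, fell by 0.42 on the log2 scale (limma adjusted p = 0.023). The other 7 tested genes of the list did not pass. Among these were Ddit4 (log2 -0.50, limma adjusted p = 0.051), Sesn2 (log2 -0.22) and Nupr1 (log2 0.02). ATF4 protein was not measured.

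Myc, a transcription factor of growth, was at 18.8, 52.7 and 37.2 TPM with stearic acid and 15.3, 14.9 and 12.2 TPM with vehicle (log2 1.19, SE 0.30, limma adjusted p = 0.023). It was listed with related factors and with markers of dividing cells, and this is not a list of MYC targets. Of the 12 tested genes of the list 7 fell, against 11.9% of all tested genes, and the list's median was -0.33. All 7 were markers of dividing cells. Among those that fell were the mitotic kinase Cdk1 (log2 -0.46, limma adjusted p = 0.0051) and the thymidine kinase Tk1 (log2 -0.45, limma adjusted p = 0.0073). The list summed to 2802 to 3040 TPM with stearic acid and 3235 to 3442 TPM with vehicle. Its part in the changes of folate genes, which dividing cells also use, was not tested.

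Of the 33 called neighbouring genes in these lists, 10 passed in every fit that left out 1 library: Atf4, Atf5, Ddit3, Trib3, Chac1, Cebpb, Ppp1r15a, Alas1, Cdk1 and Tk1. The other 23 lost their call without vehicle replicate 2, 21 of them also without vehicle replicate 3, and 15 without vehicle replicate 1 and as many without stearic acid replicate 3. Of these 23, 8 lost it without stearic acid replicate 2.

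The tested genes most like the mean of the 5 called enzyme genes over the 6 libraries were Yars, a tyrosyl-tRNA synthetase (Pearson r = 0.9998), Pgam1 (r = 0.9997) and Gtpbp4, a nucleolar GTPase (r = 0.9993). Yars was at 39.6, 60.8 and 50.9 TPM with stearic acid, against 32.6, 33.7 and 31.0 TPM with vehicle. Of all tested genes, 902 had r of at least 0.95 with this mean. These values rest on 6 libraries that also carry the difference between the groups, and are given as a description.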

How the data were processed

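Polyadenylated RNA of 6 libraries was analysed, 3 per group, from stranded TruSeq mRNA libraries per the labels' protocols. The authors deposited a TPM and an RPKM value per gene and library, per the file headers. DRAGEN and the builds GRCm38 and mm10 are named in the submitters' processing notes; annotation, strand use in counting and version were not given in the sources used here. The deposited tables used here hold no counts, so limma 3.58.1 (R 4.3.3, intensity-dependent prior) was fitted to log2(TPM + 1) over all genes whose mean reached 1 TPM, treatment as the only term, Benjamini-Hochberg threshold 0.05. Fold changes on this scale understate low genes, and TPM is a share of a library. Values are mean ± SD; single values and ratios used exact permutation tests (scipy 1.17.1). The fit was also run on simulated data with noise independent between genes and equal in both groups, unlike these libraries, and no result here rests on it. Depth was taken as the number that made the most low RPKM values whole reads over single-transcript genes (33.0% to 34.3% within 0.02), so it is approximate and no counts were rebuilt. Gene numbers gave coordinates for 35337 genes (97.3%) from RefSeq, which also supplied promoters (GRCm38.p6).

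The 10 genes and the other lists were chosen with earlier results of these data known. All 10 genes are named, and of each neighbouring pathway list, not the marker lists, the 2 called genes with the smallest p in each direction, or all where a direction had 3 or fewer, plus Mthfd2l, Aldh1l2, Pycr1, Atf4, Ddit3, Trib3 and Myc. A listed gene is not reported here. Lyz2, Cd68, S100a8, Cct6a, Chac1, Cebpb, Ppp1r15a, Ddit4, Sesn2, Nupr1 and the genes below the filter were named after their values were seen. Yars, Pgam1 and Gtpbp4 were named as the 3 tested genes most correlated with the mean of the called genes. Alternatives changed the pseudocount, filter, unit, scaling and prior, added a replicate block, or left out 1 library.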

Additional observations from a re-analysis of the deposited data

How the results depend on the processing

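The 5 rises among the 10 genes were also counted under both other pseudocounts, a filter at a mean of 5 TPM, RPKM, median-of-ratios scaling and a prior without the intensity trend. With no filter on low values the count was 0 (limma adjusted p of 0.056 for Asns to 0.10 for Mthfd2) among 21632 genes tested. Calls in both directions were then 1027 (65.4% of them higher) in place of 2856 (51.9% higher). The cause was not tested. Leaving out 1 library gave 0 to 9 rises and 549 to 5013 genes called in both directions, of which 44.2% to 78.0% were higher. No alternative called any of the 10 genes lower. Of 140 values for single genes under alternatives, 116 kept direction and side of the threshold, 18 lost the call, 5 gained it and 1 turned, Psat1, whose log2 fold change was -0.018 with stearic acid replicate 2 left out and 0.31 with replicate 1 left out. Mthfd1l over Mthfd1 turned to -0.0045 without stearic acid replicate 2, and over the 6 libraries left out its difference lay between -0.0045 and 0.11. The differences of the other 3 ratios, Phgdh over Psat1 added after the data were seen, kept their sign in the 10 alternatives run for ratios (pseudocounts, RPKM, replicate block and leaving out 1 library). No ratio could pass. Of 252 counts for the neighbouring lists, 88 moved by more than 1.5 times. Same-numbered libraries deviated together by r = 0.070, 0.29 and 0.039 for numbers 1, 2 and 3, and differently numbered ones by r of -0.32 to 0.27. With 3 libraries per group and no origin in the labels, these values cannot settle whether the numbers pair the samples. With the replicate block 6 of the 10 genes rose, Psph being added (limma adjusted p = 0.025). In that fit 3638 of 11551 genes were called in both directions, 45.1% of these higher. Not every library correlated best with its own number. The ratio differences were the same with the block, at 0.50, 0.38, 0.06 and, for Phgdh over Psat1, 0.65, as pairing leaves a difference of means as it is. Of the 33 called neighbouring genes, 18 lost the call with no filter, 5 with the prior without the intensity trend, and 3 each with RPKM and median-of-ratios scaling. Genes under 1 TPM rest on few reads.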

Other observations

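Several genes of the lists above lay below the filter, near or at 0 in these macrophages, and were picked out after their values were seen. Gldc, the decarboxylase of glycine cleavage, was at 0.156, 0.268 and 0.241 TPM with stearic acid and 0.0952, 0.0891 and 0.0691 TPM with vehicle, with no overlap between groups (exact permutation p = 0.1, the smallest that 3 against 3 libraries allow). Cth, the cystathionine lyase that ends transsulfuration, averaged 0.197 ± 0.0452 TPM with stearic acid and 0.140 ± 0.0222 TPM with vehicle (SD, n = 3 each; exact permutation p = 0.2). Cbs, which begins that route, was listed at 0.0494, 0 and 0 TPM with stearic acid and at 0.0525, 0.0136 and 0.0381 TPM with vehicle. The glycine methyltransferase Gnmt was at 0.413 ± 0.0607 TPM with stearic acid and 0.390 ± 0.137 TPM with vehicle (exact permutation p = 0.8). Aspg, an asparaginase, and Bhmt and Bhmt2, homocysteine methyltransferases known from the liver, were listed at 0 in all 6 libraries. At 19.1 to 27.7 reads per kilobase for 1 TPM, these levels rest on few reads.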
